A study of Homo sapiens with 6 samples.

Results

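The genes described here are YAP1 and WWTR1 (the gene of TAZ), the 4 TEAD transcription factors they act through, and 4 genes known as targets or partners of the pathway, CCN1 (CYR61), CCN2 (CTGF), ANKRD1 and AJUBA. They are the 10 named genes of 19775 on the array, represented by 24 of 41091 probe sets that the platform's table assigns to a single gene symbol. Their mRNA was measured on 6 Affymetrix arrays, 3 of each of a pair of cybrids, which are cells with the nucleus of one line and the mitochondria of another. In the first group, 10A/143B, mitochondria came from MCF10A, a non-tumorigenic mammary epithelial line. In the second, 468/143B, they came from MDA-MB-468, a metastatic breast carcinoma line. Both groups share the nuclear partner, 143B p0, a thymidine kinase-deficient osteosarcoma line freed of its mitochondrial DNA. Donor cells had been enucleated with actinomycin D and fused to it with polyethylene glycol. Both groups had also passed the same selection, in which bromodeoxyuridine removed donor cells and lack of uridine removed unfused p0 cells. Whether a cybrid was 1 clone or a mixture of clones is not given in the sources used here. The series' title frames the comparison as the effect of non-cancerous mitochondria on oncogenic pathways.

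YAP and TAZ are paralogous coactivators that do not bind DNA themselves. In the Hippo pathway the kinases STK3 and STK4, with the scaffold SAV1, activate the kinases LATS1 and LATS2, with MOB1. These phosphorylate YAP and TAZ, which are then held in the cytoplasm by 14-3-3 proteins or degraded. Unphosphorylated YAP and TAZ enter the nucleus, where they bind TEAD factors and switch on genes of growth, adhesion and the cytoskeleton, among them CCN1 and CCN2. Arrays measure mRNA, so phosphorylation and location of YAP and TAZ were not measured here.

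TEAD factors bind the letters GGAATG, which were searched for on both strands in the RefSeq promoters (GRCh38.p14, from 250 bases before to 50 after each start). The table matched 7 of the 10 genes, which were YAP1, WWTR1, TEAD2, TEAD3, CCN2, ANKRD1 and AJUBA, with 10 promoters in all. Of these 10 promoters, 4 held GGAATG, 1 each of YAP1, CCN2, ANKRD1 and AJUBA, against 14.03% of all 35116 promoters. The promoters of the secreted target CCN2 (chr6:131951323-131951622, minus strand) and of the muscle ankyrin repeat target ANKRD1 (chr10:90921038-90921337, minus strand) are shown because both genes are textbook targets and each held the letters more than once. Capitals mark GGAATG.
CCN2: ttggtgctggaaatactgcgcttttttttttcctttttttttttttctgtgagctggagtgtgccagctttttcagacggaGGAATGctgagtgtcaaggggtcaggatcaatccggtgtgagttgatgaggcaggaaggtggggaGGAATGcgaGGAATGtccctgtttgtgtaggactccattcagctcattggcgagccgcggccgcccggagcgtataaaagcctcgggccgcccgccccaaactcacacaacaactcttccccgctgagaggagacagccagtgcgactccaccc
ANKRD1: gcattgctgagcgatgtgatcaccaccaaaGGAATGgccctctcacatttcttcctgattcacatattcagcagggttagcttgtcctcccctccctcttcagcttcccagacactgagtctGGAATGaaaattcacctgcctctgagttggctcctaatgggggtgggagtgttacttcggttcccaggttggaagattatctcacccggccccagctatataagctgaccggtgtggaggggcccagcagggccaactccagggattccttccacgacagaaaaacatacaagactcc
In CCN2 the letters began at positions -169, -104 and -95 from the annotated start, and in ANKRD1 at -220 and -128. Among all promoters, 1.37% held them at least 2 times and 0.128% at least 3 times. The letters TGANTCA, a looser form of the AP-1 site with any base at N, were present in 7.71% of all promoters. They were found once in that of ANKRD1, as TGATTCA, and in no other of the 10. The AP-1 site itself has C or G at N, so this match is not that site. No CArG box, the site of the factor SRF, was found in the 10, and 1.29% of all promoters held one. These are matches of letters, not measured binding.

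Values are the deposited intensities, in arbitrary units, and differences are those of log2(intensity + 16), always 10A/143B minus 468/143B, with the standard error (SE) of a limma fit over all genes. The probe set with the highest mean stood for its gene, and a gene was called at a Benjamini-Hochberg adjusted p under 0.05. Other probe sets carry p-values from a fit over all 41091 probe sets. Replicates 2 and 3 of each group were near duplicates. Over probe sets of a mean level above 8 (log2), the SD of their differences was 0.08 for 10A/143B and 0.09 for 468/143B, against 0.26 to 0.28 where either was set against replicate 1. They were therefore averaged and counted as 1 sample, which leaves 2 samples per group. Nothing in the labels says whether replicates came from separate cultures, so p-values measure only the spread between these samples, which may be technical. In this fit 22.7% of all genes were called, 13.8% higher and 8.90% lower in 10A/143B. Without replicate 1 of 10A/143B 2960 genes were called in place of 4483, and without replicate 1 of 468/143B 1895. Of the calls, 60.8% were higher in 10A/143B, a share that became 50.5% under quantile normalization and 52.1% with arrays centred on their medians. As to cell identity, the epithelial keratin KRT5 stood at the arrays' lowest value, 1, on every 10A/143B array, and KRT14, EPCAM and CDH1 had mean intensities of 16.5, 55.3 and 7.92 in 10A/143B and 10.6, 36.8 and 14.9 in 468/143B. The mesenchymal filament VIM had means of 8687 and 8418, the osteoblast factor RUNX2 of 513.5 and 604.9, and the bone collagen COL1A1, on its brightest probe set, of 88.6 and 52.5. The other 4 probe sets of COL1A1 had differences of the opposite sign (-1.42 to -0.24), none called, although that at -1.42 passed with the replicate number as a block (adjusted p = 0.00766). Of 10 measured mesenchymal and osteosarcoma markers 4 were lower and 1 higher, led by the matrix protein FN1 (-2.31 ± 0.12), TWIST1 (-1.30 ± 0.20), S100A4 (-1.05 ± 0.30) and ZEB1 (0.92 ± 0.12). Of 10 epithelial markers 1 was lower, the keratin KRT8 (-1.09 ± 0.18). With the replicate block 3 were, against 13.8% of all genes in that fit. The other 2 were KRT18 (-0.33, adjusted p = 0.00848) and KRT19 (-0.63, adjusted p = 0.0332), named after their values were seen. KRT19 was dim, with mean intensities of 3.24 in 10A/143B and 14.9 in 468/143B. The 10 summed to intensities of 4979 to 5462 in 10A/143B and 6425 to 6988 in 468/143B, of which KRT18 alone gave 4705 to 5149 and 5914 to 6427. Of 8 blood and endothelial markers 1 was lower, CD34 (-0.99 ± 0.25), with sums of 209.8 to 254.6 and 189.2 to 235.0. Fewer cells of a type and less RNA per cell cannot be told apart in such bulk samples, and the part of these markers in the results was not tested.

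Of the 10 genes, 7 were called, 3 higher and 4 lower in 10A/143B, against the 22.7% of all genes. The coactivators YAP1 and WWTR1 and the factor TEAD1 were higher, and the factors TEAD3 and TEAD4 and the targets CCN1 and CCN2 were lower. TEAD2, ANKRD1 and AJUBA were not called. With all 6 arrays separate the counts of 3 and 4 were the same, while 35.6% of all genes were called (19.9% higher, 15.7% lower). They were also the same with the replicate number as a block, where it was 31.6% (17.8% higher, 13.8% lower). The median difference of the 10 genes was -0.28, and that of all genes -0.02. Arrays of the groups did not overlap for 8 of the 10 genes, and for 45.8% of all genes.

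**Figure D1:**
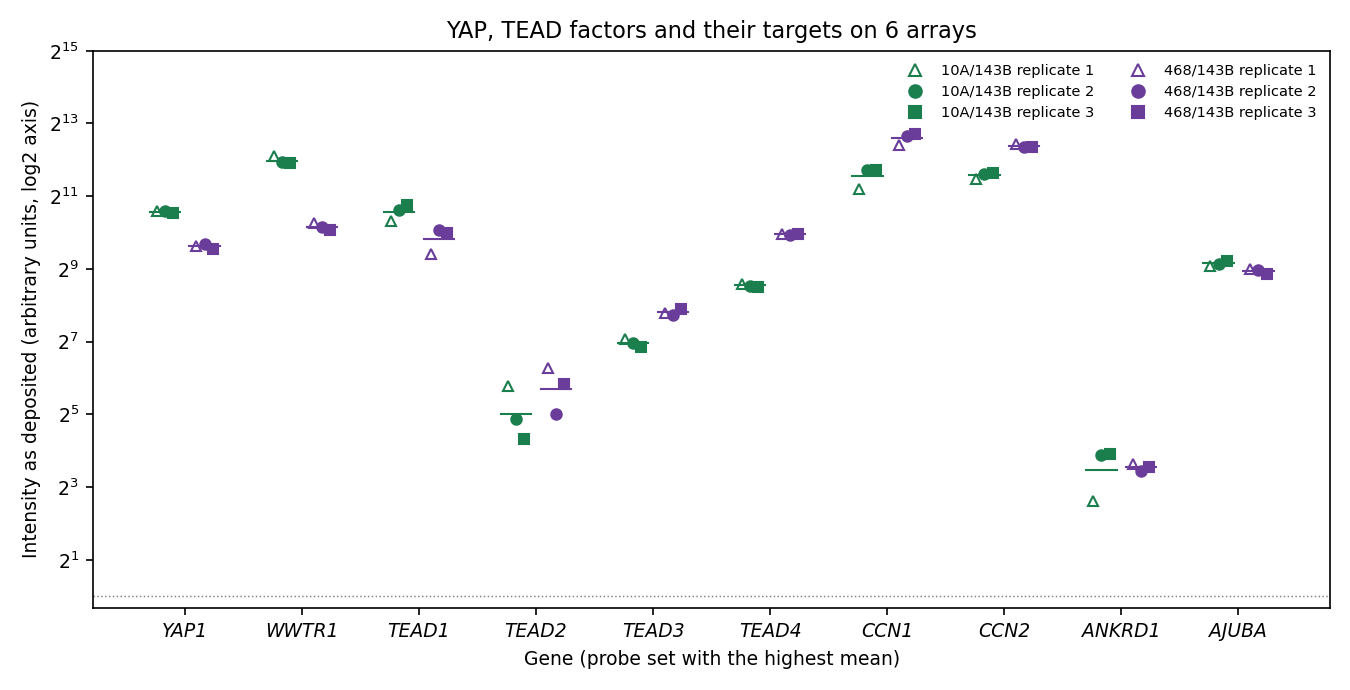
Deposited intensity (arbitrary units, log2 axis) of the brightest probe set of each of the 10 genes on each array (green 10A/143B, purple 468/143B, marker shape by replicate), with lines at the geometric mean of the 3 arrays and a dotted line at the lowest value, 1. YAP1, WWTR1 and TEAD1 lie higher in 10A/143B, TEAD3, TEAD4, CCN1 and CCN2 lower, and ANKRD1 stays at 15.1 or below on every array.

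YAP1 encodes the coactivator YAP. Its brightest probe set, 224894_at, read 1541, 1531 and 1499 on the 10A/143B arrays, in the order of their replicate numbers, and 797.9, 826.0 and 744.4 on the 468/143B arrays. Every 10A/143B array was well above every 468/143B array. The difference was 1.91-fold (log2 0.94 ± 0.10, SE, adjusted p = 7.07e-04), and it was 0.94 both between the replicate 1 arrays and between replicates 2 and 3. A second probe set, 224895_at, read 879.2, 910.2 and 910.2 against 418.8, 424.6 and 364.6. It was higher by 1.11 ± 0.12 (adjusted p = 0.00181), again without overlap. The third, 213342_at, went the other way without being called. It read 190.0, 156.5 and 170.1 against 274.4, 184.8 and 199.5, so the groups overlapped (-0.36 ± 0.21, adjusted p = 0.327). With the mean of the 3 probe sets, the difference of YAP1 was 0.56 and remained called (adjusted p = 0.0204).

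WWTR1 encodes TAZ, the paralogue of YAP, and on the brightest probe sets its difference was larger in size than that of 98.7% of all genes. Probe set 202133_at read 4390, 3929 and 3822 in 10A/143B and 1218, 1128 and 1075 in 468/143B. The lowest 10A/143B array thus stood far above the highest 468/143B array. The difference was 3.53-fold (log2 1.82 ± 0.11, adjusted p = 2.01e-04), with 1.84 between the replicate 1 arrays and 1.80 between replicates 2 and 3. Probe set 202132_at read 770.7, 634.7 and 639.1 against 215.3, 192.7 and 174.9. It gave a like difference, 1.74 ± 0.16 (adjusted p = 0.00126). The remaining probe set, 202134_s_at, read 588.1, 526.4 and 576.0 against 724.1, 739.3 and 765.4. All its 10A/143B arrays were lower (-0.37 ± 0.12, adjusted p = 0.0776, but 0.0452 with the replicate number as a block). The mean of the 3 probe sets was higher by 1.06 (adjusted p = 0.00318), while the sign of the difference in WWTR1 was not shared by all 3 of its probe sets.

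The 4 TEAD genes encode DNA-binding paralogues that YAP and TAZ share as partners, and they went different ways. TEAD1 on 224955_at read 1278, 1585 and 1722 in 10A/143B and 675.6, 1082 and 1024 in 468/143B. The groups did not overlap, although replicate 1 was the lowest array in both. The difference was 1.71-fold (log2 0.77 ± 0.21, adjusted p = 0.0321), with 0.90 between the replicate 1 arrays and 0.64 between replicates 2 and 3. The call was narrow. In the fit over all probe sets the same probe set missed the threshold (adjusted p = 0.0506, or 0.00122 with the replicate block). It was also lost without replicate 1 of 10A/143B (0.96, adjusted p = 0.0862) or of 468/143B (0.46, adjusted p = 0.224), and without limma's intensity trend (adjusted p = 0.125). Both dimmer probe sets of TEAD1, with mean intensities of 13.7 to 64.1, gave 0.11 ± 0.32 and -0.17 ± 0.26, and the mean of the 3 was 0.24 (adjusted p = 0.537).

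TEAD4 was lower in 10A/143B on both of its probe sets. Probe set 41037_at read 385.3, 372.2 and 364.6 against 1003, 975.5 and 996.0. Replicates lay close together in each group, and the groups were far apart. The difference was 2.57-fold (log2 -1.36 ± 0.11, adjusted p = 3.32e-04). Its other probe set, 204281_at, read 298.2, 347.3 and 342.5 against 776.0, 760.1 and 809.0. It was lower by a like amount (-1.24 ± 0.13, adjusted p = 0.00177).

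TEAD3 has a single probe set, 209454_s_at, whose suffix marks probes that may bind more than 1 transcript. It read 134.4, 125.4 and 116.2 in 10A/143B and 221.3, 212.3 and 237.2 in 468/143B. The 10A/143B arrays were all lower, 1.67-fold (log2 -0.74 ± 0.17, adjusted p = 0.0188). The call was lost without replicate 1 of 468/143B (-0.75, adjusted p = 0.158). TEAD2 was dim on all 4 of its probe sets, none of which was called. The brightest on average, 238322_s_at, read 55.3, 29.4 and 19.97 against 77.2, 32.2 and 56.9. These arrays overlapped and spread widely within each group (-0.47 ± 0.39, adjusted p = 0.478). The other 3 gave differences from -0.46 to -0.01.

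CCN1 and CCN2 encode secreted matricellular proteins and are the most used readouts of YAP and TEAD activity. CCN2 on its only probe set, 209101_at, read 2856, 3148 and 3191 in 10A/143B and 5557, 5221 and 5257 in 468/143B. No 10A/143B array reached any 468/143B array. The difference was 1.79-fold (log2 -0.84 ± 0.10, adjusted p = 0.00123), with -0.96 between the replicate 1 arrays and -0.72 between replicates 2 and 3. Its promoter, shown above, is the one with 3 GGAATG matches.

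CCN1 on 201289_at read 2336, 3397 and 3373 against 5480, 6472 and 6654. Replicate 1 was the lowest array in both groups, and the groups did not overlap. The difference was 2.13-fold (log2 -1.09 ± 0.18, adjusted p = 0.00378). Its other probe set, 210764_s_at, read 1458, 1746 and 1833 against 7231, 7033 and 6747. Here the difference was larger, 4.34-fold (-2.12 ± 0.12, adjusted p = 8.08e-04), so the direction was shared by both probe sets of CCN1 and the size was not. The other members of the CCN family were dim. Of CCN3, CCN4, CCN5 and CCN6, limma called 0, also with all 6 arrays separate, and 0 had an unadjusted p under 0.05, against 32.9% of all genes. CCN6 (0.22 ± 0.16, adjusted p = 0.423) and CCN3 (-0.12 ± 0.17, adjusted p = 0.705) came nearest.

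ANKRD1, a nuclear ankyrin repeat protein of muscle and a further target of YAP, was near the low end of the arrays. Its probe set 206029_at read 6.15, 14.7 and 15.1 in 10A/143B and 12.4, 10.9 and 11.6 in 468/143B. The groups overlapped (-0.09 ± 0.24, adjusted p = 0.854), and the sign differed between the replicate 1 arrays (-0.36) and replicates 2 and 3 (0.18). ANKRD1 was the only 1 of the 10 genes under 5.25 on the log2 scale, the median over every probe set. Its relatives ANKRD23 (0.41 ± 0.26, adjusted p = 0.349) and ANKRD2 (-0.02 ± 0.22, adjusted p = 0.962) were not called either.

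AJUBA is a LIM-domain scaffold of cell junctions that binds LATS kinases and so limits phosphorylation of YAP. Its brightest probe set, 225806_at, read 545.0, 560.3 and 600.5 against 515.6, 505.0 and 467.9. The arrays did not overlap, but the difference was small (0.16 ± 0.12, adjusted p = 0.402). Probe set 1553764_a_at gave 0.29 ± 0.17 (adjusted p = 0.336) and 225807_at 0.23 ± 0.29 (adjusted p = 0.669). The fourth, 243446_at, read 16.7, 27.3 and 25.3 against 117.0, 121.1 and 101.1. It was lower without overlap (-1.80 ± 0.28, adjusted p = 0.00536), so AJUBA has no settled direction. Of 5 related LIM genes, 1 was higher and 1 lower, against 13.8% and 8.90% of all genes. With the replicate block 2 were lower, ZYX (-0.49, adjusted p = 0.00553, named after its values were seen) being the other. LPP was higher by 1.21 ± 0.16, with 3 further probe sets higher and 1 lower (-1.24), and TRIP6 was lower (-0.85 ± 0.11).

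**Figure D2:**
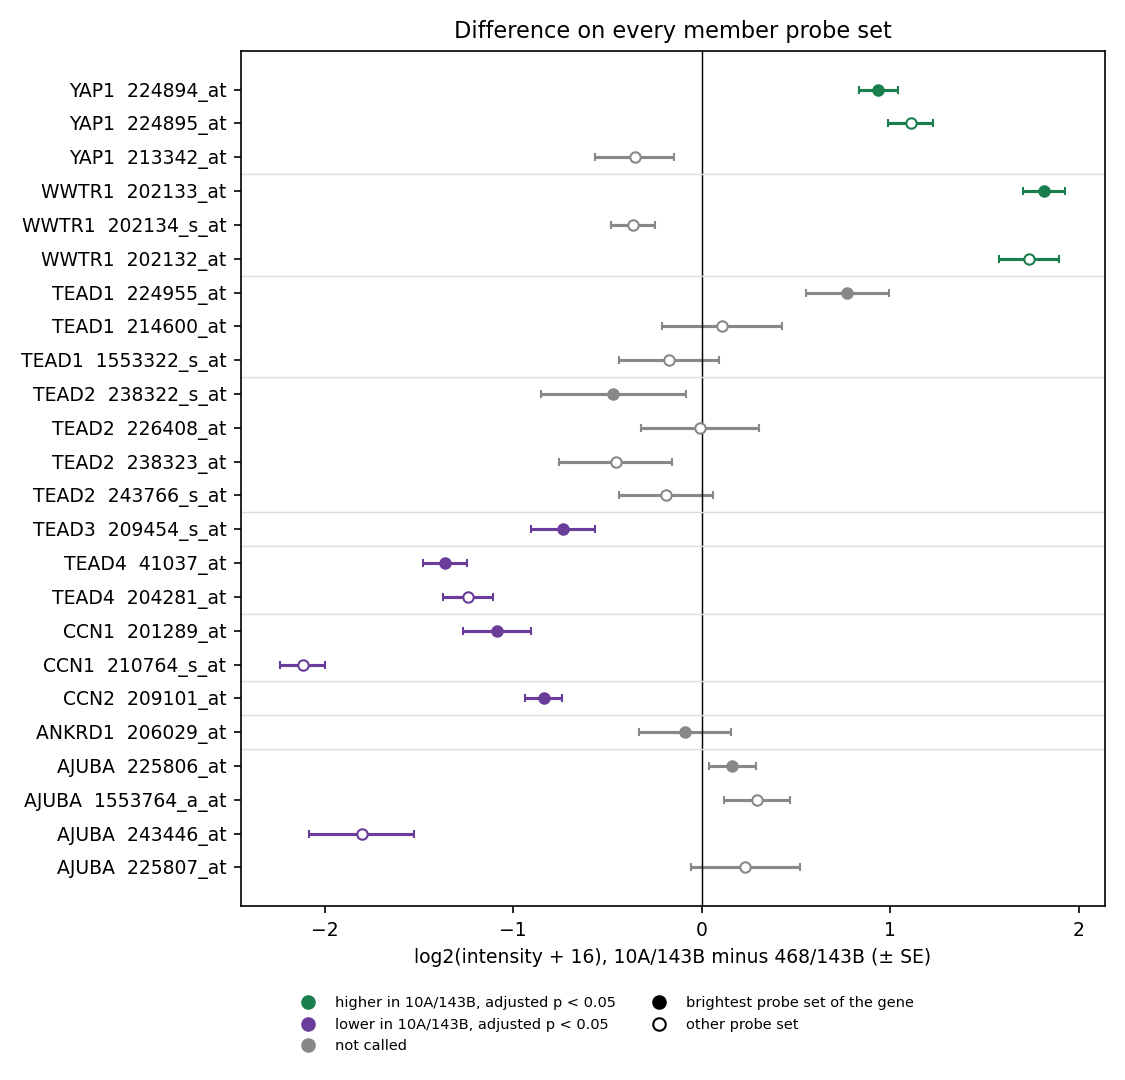
Log2 difference (10A/143B minus 468/143B) with its SE on each of the 24 probe sets, from the fit over all 41091 probe sets, filled for the brightest probe set of a gene and coloured by call. WWTR1 has 2 probe sets at 1.74 and 1.82 and 1 at -0.37, and AJUBA 3 between 0.16 and 0.29 and 1 at -1.80.

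Over probe sets, 11 of the 24 were called, 4 higher and 7 lower, against 17.9% of all probe sets (11.7% higher, 6.14% lower). Without replicate 1 of 468/143B it was 7, with 4 higher and 3 lower. Of the 7 genes with more than 1 probe set, TEAD4 and CCN1 were called on both of theirs in 1 direction. YAP1, WWTR1 and AJUBA each had a called probe set and another of opposite sign.

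Genes of the Hippo kinase module, which acts on YAP and TAZ, were mostly higher in 10A/143B. Limma called 6 of the 7 higher and 0 lower (median 0.88, against -0.02 for all genes and 13.8% of all genes higher). MOB1B, an activator of LATS kinases, had mean intensities of 426.7 and 51.6 and was 6.66-fold higher (2.74 ± 0.18, adjusted p = 2.01e-04), the kinase LATS1 was higher by 1.66 ± 0.19 and the other MOB1 gene, MOB1A, by 0.97 ± 0.12. SAV1, the scaffold of STK3 and STK4, was higher by 0.88 ± 0.23. MOB1A and SAV1 also had probe sets called the opposite way, at -0.52 for MOB1A and -0.98 and -1.03 for SAV1. When all probe sets of a gene were averaged, 1 gene of the module was higher and 1 lower, against 1871 and 1348 of all genes in that fit. Without replicate 1 of 468/143B 3 were higher and 1 lower. With probe sets of the suffixes _x_at and _s_at left out, 4 were higher and 1 lower, against 2327 and 1159 of all genes in that fit. LATS2, named after its values were seen because it alone was not called, is both a kinase and a known target of YAP. It read -0.13 ± 0.32 on its brightest probe set, with opposite signs between the replicate 1 arrays (0.48) and replicates 2 and 3 (-0.74). Of its other probe sets 2 were called lower, at -0.64 and -3.06.

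Of 17 measured upstream regulators of these kinases, 10 were higher and 1 lower (median 0.86), against 13.8% and 8.90% of all genes. The scaffold WWC3 was higher by 1.78 ± 0.28, the kinase TAOK1 by 1.65 ± 0.16, with 3 of its other probe sets also called higher, and the tumour suppressor NF2 (merlin) by 1.53 ± 0.14, the latter on 1 of its 8 probe sets. RASSF1, a binding partner of STK3 and STK4, was lower (-2.03 ± 0.31). With the replicate block 12 of the regulators were higher and 2 lower, against 17.8% and 13.8% of all genes in that fit. Without _x_at and _s_at probe sets 7 were higher and 0 lower, against 2327 and 1159 of all genes in that fit. Proteins that hold or mark YAP in the cytoplasm and at junctions went both ways, with 5 of 17 higher and 5 lower (median 0.13), against 13.8% and 8.90% of all genes. The tight junction protein TJP1 was higher by 0.94 ± 0.11. The 14-3-3 protein SFN (-0.88 ± 0.22), the kinase CSNK1D (-0.86 ± 0.14) and the angiomotin AMOTL2 (-0.81 ± 0.11) were lower, although CSNK1D read 0.46 on another probe set (adjusted p = 0.101, or 0.0349 with the replicate block). Without replicate 1 of 10A/143B only 3 were higher and 2 lower, and without that of 468/143B 1 and 2. Of the vestigial-like proteins, which compete with YAP for TEAD, limma called 0 of 4, with 0 at an unadjusted p under 0.05. VGLL4 gave -0.47 ± 0.25 (adjusted p = 0.249, but 0.00588 with the replicate block) and VGLL1 0.22 ± 0.24 (adjusted p = 0.601).

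Beside CCN1, CCN2 and ANKRD1, 18 further genes commonly used as YAP and TEAD targets were measured, of which 2 were higher and 5 lower in 10A/143B (13.8% and 8.90% of all genes). In all 38.9% were called, against 22.7% of all genes, and their median was 0.09. Without replicate 1 of 468/143B 1 was higher and 4 were lower. The growth factor binder IGFBP3 had mean intensities of 312.5 and 1151 and was 3.55-fold lower (-1.83 ± 0.13, adjusted p = 2.17e-04), as on its other probe set (-2.13). The matrix protein CCDC80 (-1.53 ± 0.25) and the growth arrest gene GADD45A (-1.10 ± 0.09) were lower. DOCK5, an exchange factor for RAC, went the other way, higher by 1.96 ± 0.34, with 2 further probe sets called higher. AXL and ASAP1, named after their values were seen, were not called on their brightest probe sets. AXL was called lower on another (-1.13, adjusted p = 0.00314). ASAP1 was called higher on others (0.77, adjusted p = 0.00942, and 0.58, adjusted p = 0.0408) and read -0.59 on a further one, not called. The targets thus did not share a direction. Promoters of 14 of the 19 listed targets were matched, 16 promoters in all, and 7 of these genes had GGAATG in at least 1 promoter. Among the 7 is NUAK2, which is listed but not among the 18 measured. Of all 35116 promoters 14.03% held GGAATG, a share per promoter and not per gene.

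**Figure D3:**
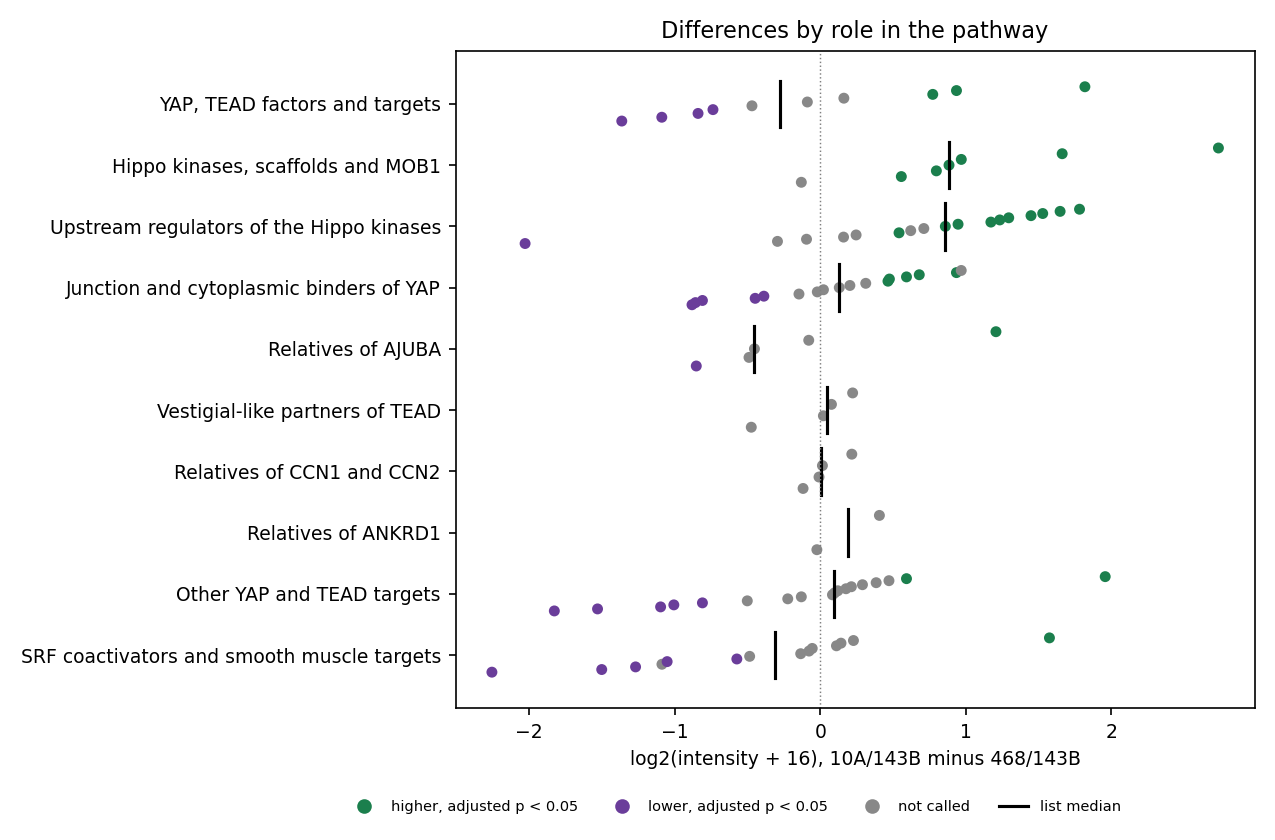
Log2 difference (10A/143B minus 468/143B) of each measured gene by role in the pathway, 1 probe set per gene, coloured by call, with a black line at the list median. AMOTL2, PTPN14 and LATS2 appear in 2 rows each, and the kinase module and its upstream regulators have medians of 0.88 and 0.86, while the other targets have one of 0.09.

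CCN1 and CCN2 are also known targets of SRF, the factor that drives smooth muscle actin genes with the coactivators MRTFA and MRTFB. Of 14 such genes and coactivators 5 were lower and 1 higher (median -0.31), against 8.90% and 13.8% of all genes, and their intensities summed to 8304 to 9066 on the 10A/143B arrays and 11467 to 12139 on the others. The myosin light chain MYL9 (-2.26 ± 0.29), the smooth muscle actin ACTA2 (-1.501 ± 0.181) and the tropomyosin TPM2 (-1.27 ± 0.11) were lower. MRTFB was higher by 1.57 ± 0.20, with 1 further probe set called higher and 1 lower. The part of these genes in the differences of CCN1 and CCN2 was not tested.

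Differences over all genes carried a trend with gene length. Among genes with a mean log2 level above 7, YAP1, WWTR1 and TEAD1 lie at length percentiles 86.1, 93.9 and 96.3, and CCN1 and CCN2 at 4.93 and 4.94. With that trend removed, the differences were 0.53 for YAP1 (adjusted p = 0.00871), 1.38 for WWTR1 (adjusted p = 5.51e-04), -0.80 for CCN1 (adjusted p = 0.0169) and -0.55 for CCN2 (adjusted p = 0.00823), all still called. TEAD1 was at 0.31 and not called (adjusted p = 0.328), and TEAD4, at length percentile 76.9, was at -1.71 (adjusted p = 3.72e-04). Of the kinase module 4 of 7 genes were then higher, and of the junction and cytoplasmic binders 1 was higher and 4 lower. Of the upstream regulators 8 were then higher and 3 lower, in place of 10 and 1. Over all 19775 genes 2233 were then higher and 2386 lower. RNA integrity, read from ACTB as the signal of its 3′ probe set over that of its 5′ probe set, was uneven between the replicate 1 arrays. The ratio was 1.92 against 1.18 in the replicate 1 arrays of 10A/143B and 468/143B. It was 1.74 and 1.59 against 1.65 and 1.67 in replicates 2 and 3, which are counted as 1 sample per group. In these arrays YAP1, WWTR1 and TEAD1 differed by 0.94, 1.80 and 0.64. TEAD3, TEAD4, CCN1 and CCN2 differed there by -0.81, -1.38, -0.95 and -0.72. The same ratio of GAPDH was 1.01 against 0.966 in replicate 1, and 0.973 and 0.933 against 1.06 and 1.07 in replicates 2 and 3. The part of RNA integrity in the results was not tested.

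**Figure D4:**
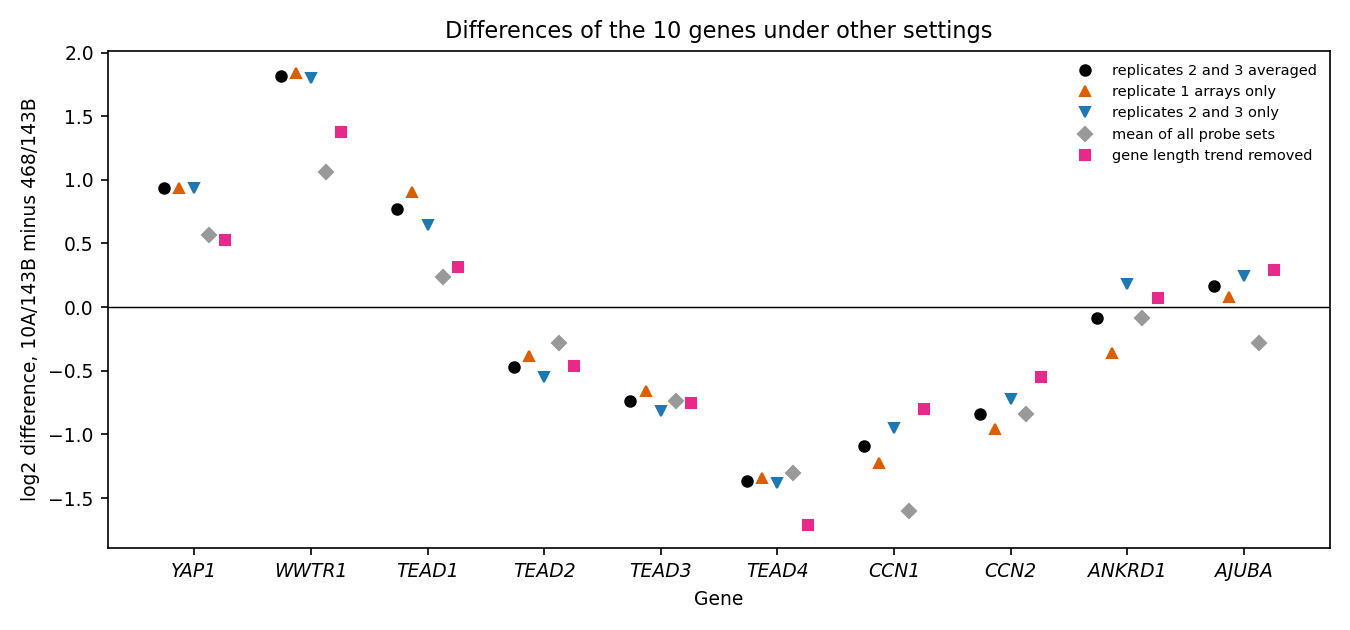
Log2 difference (10A/143B minus 468/143B) of the 10 genes with replicates 2 and 3 averaged (black), in the replicate 1 arrays only (orange), in replicates 2 and 3 only (blue), with a gene's probe sets averaged (grey) and with the gene length trend removed (pink). The 7 called genes keep their sign in all 5 settings, with YAP1 at 0.94, 0.94, 0.94, 0.56 and 0.53, while ANKRD1 and AJUBA lie on both sides of 0.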

How the data were processed

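Each array's deposited table gives 1 linear intensity for every probe set. How the authors corrected, summarised and scaled it is not given in the sources used here. The intensities were used as deposited, as log2(intensity + 16), with arrays grouped and numbered by source name. Probe sets with 1 symbol in the platform's table were named, through Entrez identifiers, by the RefSeq genes of GRCh38.p14. The array files name no build. The median intensity was 20.4 to 24.4 per array, and precision is limited by how few arrays there are. The comparison used limma 3.58.1 (R 4.3.3, intensity trend, Benjamini-Hochberg), a fit that was tested on simulated data. Same-numbered arrays share their number in the labels. The main fit did not use the numbers as pairs, and a replicate block, which did, was an alternative. Deviations of same-numbered arrays from the group means correlated at 0.298, 0.219 and 0.232 over 5711 genes. In each group the near duplicates deviate together, opposite to replicate 1, so these correlations largely repeat the contrast of replicate 1 with the others. Correlations between differently numbered arrays were not computed, so the values given cannot show how the near duplicates pair across groups.

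The 10 genes and the 12 other lists were chosen with earlier results of these data known. All probe sets of the 10 genes were named, and of each other list up to 4 called genes with the largest difference or, with none, the 2 with the smallest p, with some markers whatever their values. The length trend (loess, span 0.5) was fitted on genes with a mean log2 level above 7. Alternatives were separate arrays, each array left out, other offsets, quantile normalization, median centring, a level filter, averaged probe sets, no _x_at or _s_at probe sets and no intensity trend.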

Additional observations from a re-analysis of the deposited data

How the results depend on the processing

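The member genes called were 5 to 8 of 10 under every alternative run, against 7, and YAP1, WWTR1, TEAD4, CCN1 and CCN2 kept direction and call in all 19. TEAD1 lost its call in 5 of 19 and TEAD3 in 1 of 18. TEAD3 has no value without _s_at probe sets. AJUBA passed in 1, with replicate 1 as a batch term on 6 arrays (0.19, adjusted p = 0.0428). All genes called numbered 7042 with 6 separate arrays, 6245 with the replicate block on averaged samples, 7750 with the replicate block on 6 arrays and 8550 with replicate 1 as a batch term, against 4483. Leaving out 1 array gave 1895 to 4372 genes and 7 to 11 of the member probe sets. The replicate block changed the call of no member gene and gave 13 member probe sets against 11. Counts in 5 lists (kinase module, upstream regulators, binders, other targets, SRF genes) were tried under all alternatives after the data were seen. When all probe sets of a gene were averaged 2 genes of the kinase module were called (against 6) and 6 of the binders (against 10). Of all genes 3219 were called in that fit. Without _x_at and _s_at probe sets it was 7 of the upstream regulators (against 11), 6 of the binders and 3486 of all genes. The binders gave 5 with the length trend removed, 3 without the intensity trend and 3 to 10 with 1 array left out. The causes were not tested. The values used here carry no detection call, so the dim signals of ANKRD1 and TEAD2 could not be told from background.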
